A study of Mus musculus with 6 samples.

Results

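The genes described here encode the machinery of autophagy and of delivery to the lysosome, from the kinase complex that starts the process to the proteases that finish it. The set holds 46 named genes, chosen by symbol, each read from the probe set with the highest mean over all 6 arrays. A probe set of a single gene symbol was found for 45 of them, Optn was not analysed here, and 44 passed the filter on dim probe sets. They stand among 45101 probe sets on each array, of which 22580 were tested. The arrays carried RNA of blood stem cells that had been sorted out of whole marrow from C57BL/6 mice 8 to 12 weeks old, kept free of specific pathogens and given no treatment other than the sort. One group, Lrg47_HSC (3 arrays), came from Lrg-47-/- mice, which lack the interferon-induced GTPase Irgm1, and the other, WT_HSC (3 arrays), from wild-type mice. The labels name neither the deleted part of the gene nor how many mice gave each RNA, and the p-values measure the spread between these arrays, part of which may be technical. The cells were taken as the Hoechst side population with Sca-1, c-kit and lineage staining, and in such bulk RNA fewer cells of a type and less RNA per cell cannot be told apart.

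In autophagy a double membrane closes around part of the cytoplasm and the resulting autophagosome fuses with a lysosome, where the cargo is digested. The Ulk kinase complex and the class III phosphatidylinositol 3-kinase start the membrane, ubiquitin-like conjugation attaches proteins of the Atg8 family (LC3 and GABARAP) to it, and receptors bind both these proteins and the cargo. Blood stem cells depend on autophagy for the clearance of mitochondria and for survival under stress, and the immunity-related GTPases are known for their part in the autophagy of intracellular pathogens.

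The Irgm1 probe set gave 7.68, 8.58 and 7.84 on the Lrg47_HSC arrays and 8.39, 8.57 and 8.36 on the WT_HSC arrays, a log2 difference of −0.41 (SE 0.25, limma adjusted p = 0.475). The deleted part is not named, so this probe set may lie outside it and does not check the genotype, and the groups are called by their labels. Of 10 measured stem cell markers 10 lay above the bacterial control probe sets on every array. Of 13 measured T and NK cell markers 11 lay higher on all Lrg47_HSC arrays than on any WT_HSC array, as did 11.5% of all probe sets tested. The values of the 13, summed on the linear scale, ran from 8460 to 16500 against 417 to 806. One of the 13, Ncr1, was at or below the controls on every array, and 8 of the 13 passed the filter on dim probe sets. Ccl5 had the highest mean of the 13 over the 6 arrays (10.57), ahead of Nkg7 (8.83), and a linear sum gives the brightest gene the most weight. Of the 10 stem cell markers 4 lay wholly lower and 1 wholly higher on the Lrg47_HSC arrays, beside 11% and 11.5% of all probe sets tested. The sum of the 10 ran from 20400 to 22900 against 24900 to 27800. Megakaryocyte and platelet markers were wholly higher for 5 of 7, beside 11.5% of all probe sets tested. The actin 3′ to 5′ gap, a sign of how completely transcripts were amplified, was 2.81 to 3.56 on the Lrg47_HSC arrays and 2.57 to 3.16 on the WT_HSC arrays. The same gap of Gapdh leaned the other way, at 2.56 to 2.94 against 2.72 to 3.08. WT_HSC replicate 3 had the lowest actin gap (2.57) and the highest Gapdh gap (3.08), so the 2 controls did not rank the arrays alike.

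Across the whole set, no autophagy or lysosome gene passed the test. Limma called 0 of 44 members higher and 0 lower at an adjusted p under 0.05, where it called 1.39% of all probe sets tested (0.664% higher and 0.722% lower). The unadjusted p was under 0.05 for 8 of the 44, or 18.2%, beside 16.4% of all probe sets, so the share lay near the background. Of these 8 members 7 were lower and 1 was higher, where 8.9% and 7.52% of all probe sets were. The lower ones were Gabarapl1, Map1lc3a, Map1lc3b, Nbr1, Ctsl, Rab7 and Ulk1, and the higher one was Atg5. The directions were less even. Of the 44 members 31 had a lower mean on the Lrg47_HSC arrays and 13 a higher one, with a median log2 difference of −0.21 beside 0.01 over all probe sets tested. That median was −0.099 without Lrg47_HSC replicate 1, −0.12 without WT_HSC replicate 1 and −0.042 with the mean over each gene's probe sets. The groups did not overlap for 12 of 44 members (27.3%, beside 22.6% of all probe sets tested). The 3 Lrg47_HSC values lay wholly below the WT_HSC values for 11 members (25%, against 11% of all probe sets tested) and wholly above them for 1 member (2.27%, against 11.5%). These shares are a description, since the members are no replicates of one another.

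**Figure D1:**
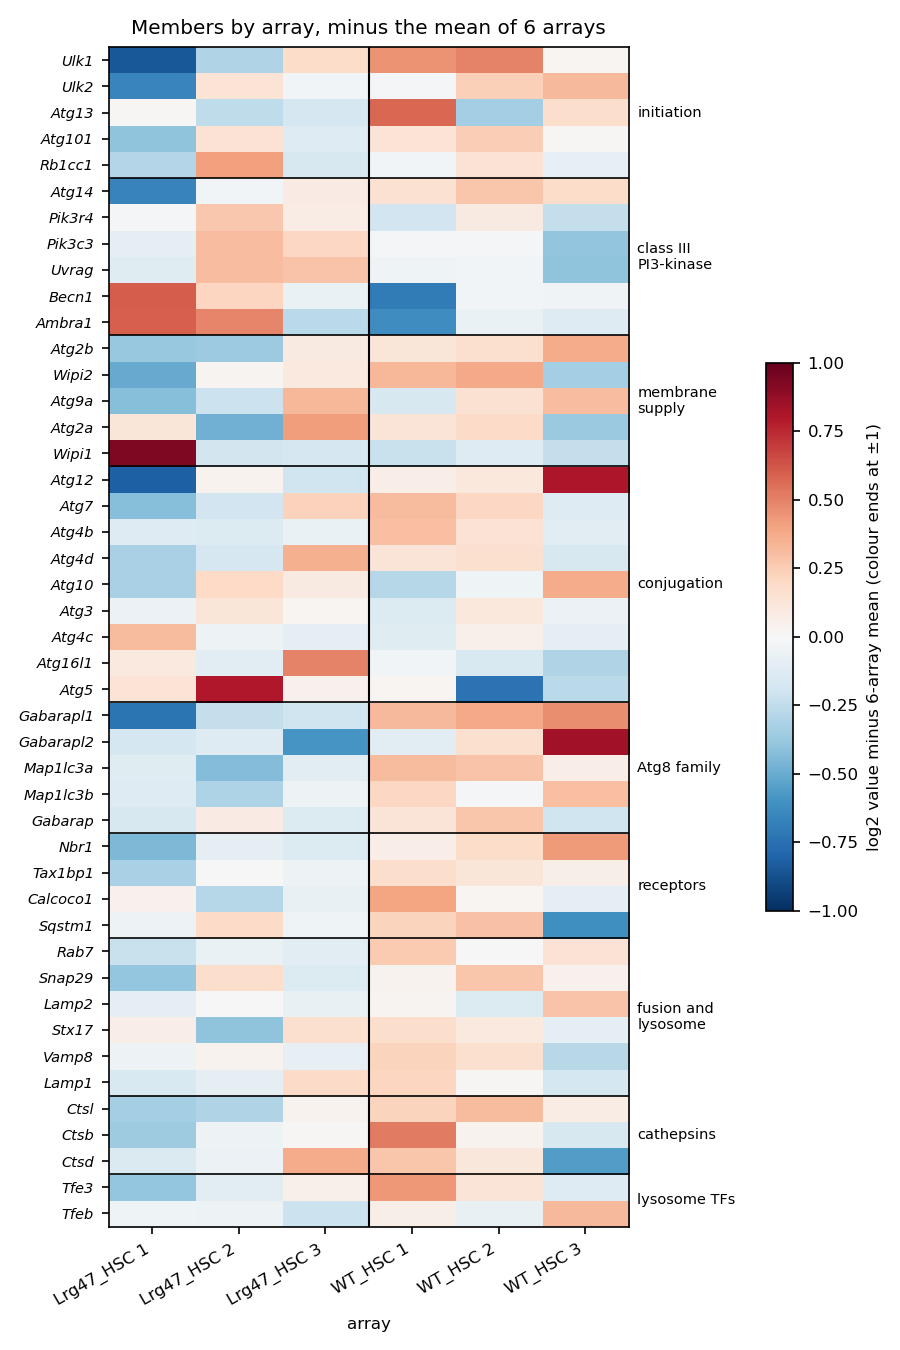
Each row is 1 of 45 members and each column 1 array; colour is the log2 value minus that gene's mean over the 6 arrays, with steps separated by lines. The 5 Atg8 family rows are mostly blue on the 3 Lrg47_HSC arrays, while the class III PI3-kinase rows are mixed.

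The differences were small on the scale of the arrays. For 37 of 44 members the difference was under 0.5 on the log2 scale, and for 36 the whole 95% confidence interval lay within 1 log2 unit of 0, that is within a 2-fold change in either direction. The lowest interval bound was −1.34 (Atg12) and the highest 1.31 (Atg5). The smallest difference that limma called anywhere in the table was 0.58, so most members differed by less than any probe set called. The median spread within a group was 0.24 (SD) for the members and 0.25 for all probe sets tested. WT_HSC replicate 3 was the array farthest from its group's median for 25 of 44 members (56.8%) and for 44.7% of all probe sets tested, and Lrg47_HSC replicate 1 for 18 of 44 (40.9%) and 29.3%. Without WT_HSC replicate 3 the member median was −0.25.

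**Figure D2:**
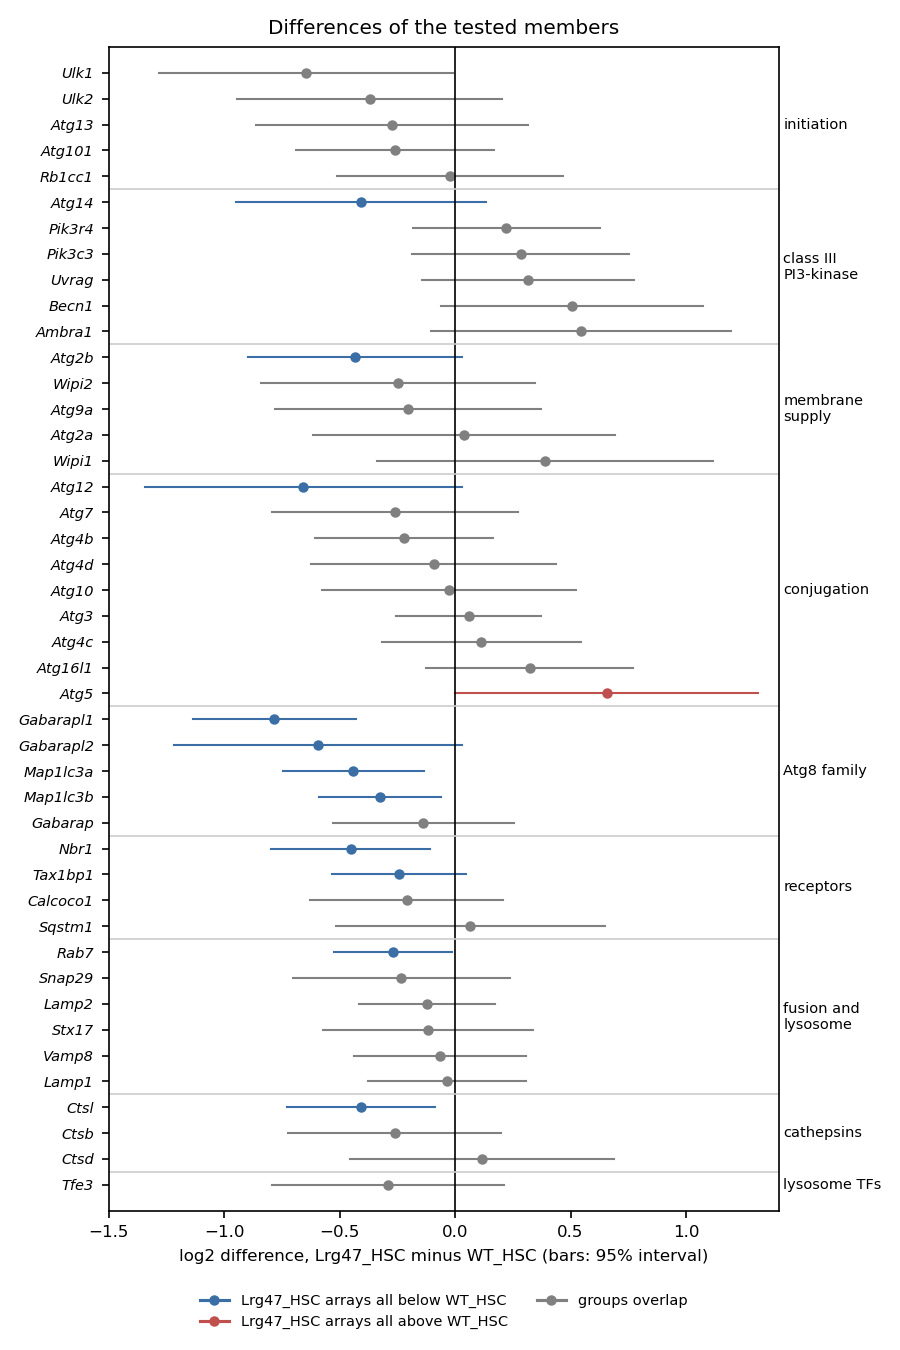
Each point is the log2 difference (Lrg47_HSC minus WT_HSC, 3 arrays each) of 1 of 44 tested members and each bar its 95% confidence interval. Blue marks the 11 members whose Lrg47_HSC arrays all lay below WT_HSC and red the 1 that lay above; Gabarapl1 is farthest to the left.

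The members of the Atg8 family are the ubiquitin-like proteins that are attached to the growing membrane and recruit receptors and fusion factors. All 5 had lower means on the Lrg47_HSC arrays, 4 without overlap between the groups (80%, beside 11% of all probe sets tested in that direction). The median difference was −0.44. This was the lowest median of the steps on all 6 arrays, but not without Lrg47_HSC replicate 2 (−0.33, against −0.40 for the Ulk complex) or without WT_HSC replicate 3 (−0.32, against −0.41 for cathepsins and −0.43 for Tfe3). The mean deviation of the family from its 6-array mean was −0.26, −0.21 and −0.22 on the Lrg47_HSC arrays and 0.17, 0.22 and 0.29 on the WT_HSC arrays, with a within-group SD of 0.05. This separation is partly fixed by the 4 members that do not overlap and carries no test of its own.

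Gabarapl1, the GABARAP-like protein 1, gave the smallest p of all members. Its values were 12.64, 13.13 and 13.17 on the Lrg47_HSC arrays and 13.70, 13.75 and 13.84 on the WT_HSC arrays. All 3 knockout-labelled arrays were below every wild-type array, by a mean of 0.78 (log2 difference −0.78, SE 0.15, 95% interval −1.13 to −0.43), which corresponds to a linear ratio of 1.72. The adjusted p was 0.061, short of the threshold. At an adjusted p under 0.10, a looser rule, Gabarapl1 was the 1 of 44 members called, where 2.79% of all probe sets were, 1.4% in the lower direction. It was also called with array weights in the fit (limma adjusted p = 0.0298, with 3.83% of all probe sets called) and when only probe sets above the 70th percentile were tested (0.02, with 2.58% called). Over all alternatives its adjusted p ran from 0.02 to 0.181 and its difference from −0.88 to −0.61. Its other probe set read 11.25, 11.85 and 11.62 against 12.18, 12.59 and 12.38, a difference of −0.81 (adjusted p = 0.0957). Both probe sets therefore placed the 3 Lrg47_HSC arrays lowest.

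Map1lc3a and Map1lc3b encode LC3A and LC3B, the forms most used to follow autophagosomes. Map1lc3a read 12.60, 12.28 and 12.60 against 13.03, 13.00 and 12.78 (difference −0.44, SE 0.13, adjusted p = 0.171). Its probe set carries the suffix by which the manufacturer marks probes that may hybridise to other transcripts, and the groups overlapped on the other one (−0.28, adjusted p = 0.614). Map1lc3b read 14.57, 14.39 and 14.65 against 14.91, 14.68 and 14.998 (difference −0.32, SE 0.11, adjusted p = 0.227). The groups did not overlap, but the gap between the highest knockout-labelled and the lowest wild-type array was small. Its 4 probe sets disagreed. The third gave 9.79, 10.06 and 9.99 against 10.56, 10.86 and 10.64 (−0.74, adjusted p = 0.0664), whereas the second and the fourth had higher means on the Lrg47_HSC arrays (0.31 and 0.09), with overlapping groups.

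Gabarapl2, also called GATE-16, read 8.81, 8.85 and 8.40 against 8.88, 9.14 and 9.82 (difference −0.59, SE 0.27, adjusted p = 0.325). WT_HSC replicate 1 lay just above the highest Lrg47_HSC array, and WT_HSC replicate 3 and Lrg47_HSC replicate 3 stood at the ends, and the difference was −0.32 without the former. A dimmer probe set of the same gene gave −0.50 (adjusted p = 0.273), also without overlap. Gabarap, the founding member of that branch, read between 9.97 and 10.22 on the Lrg47_HSC arrays and 10.26, 10.41 and 9.93 on the WT_HSC arrays, and its groups overlapped (−0.14, adjusted p = 0.736).

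**Figure D3:**
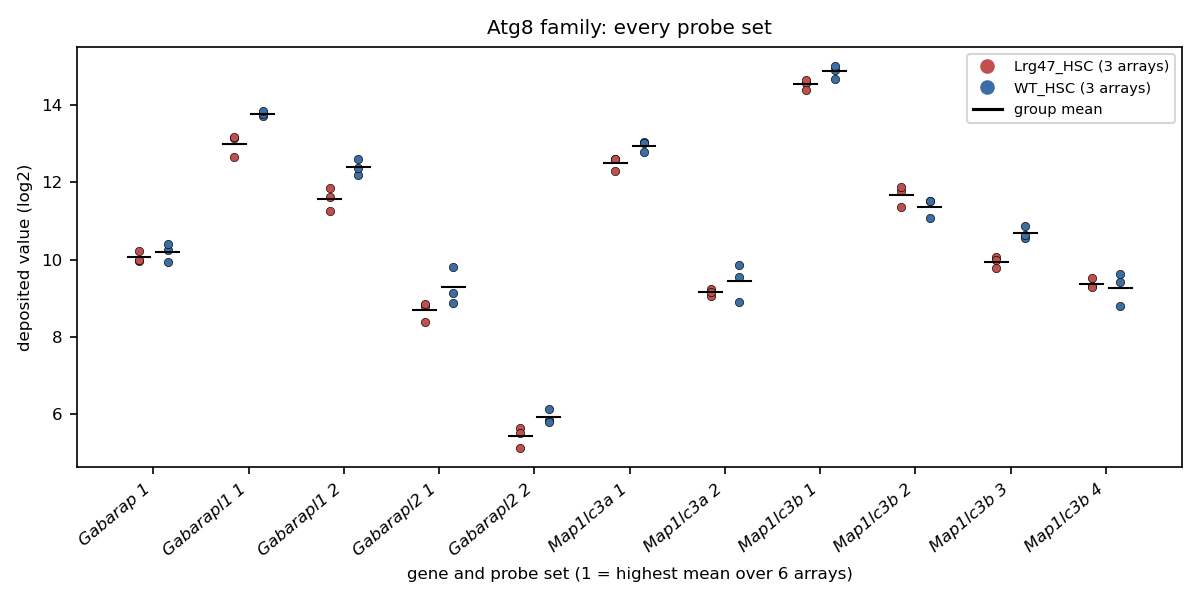
Deposited log2 values of all 11 probe sets of the Atg8 family, numbered within a gene by falling mean; points are arrays and bars group means of 3. Both Gabarapl1 probe sets separate the groups, while the 4 Map1lc3b probe sets do not all point the same way.

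The class III phosphatidylinositol 3-kinase complex, which makes the lipid that marks the site of membrane growth, had a median difference of 0.30, which fell to 0.18 without WT_HSC replicate 3. Of its 6 members 5 had higher means on the Lrg47_HSC arrays and 0 were called. Becn1 (Beclin 1, the scaffold of the complex) read 11.39, 11.00 and 10.72 against 10.09, 10.76 and 10.76, so the groups overlapped (difference 0.50, SE 0.24, adjusted p = 0.354). Of its 3 tested probe sets 1 had the opposite sign (−0.09), and the difference was 0.33 and 0.28 without replicate 1 of Lrg47_HSC or of WT_HSC. Ambra1, which binds Beclin 1 and aids its activation, read 6.59, 6.48 and 5.72 against 5.37, 5.93 and 5.86 (0.55, SE 0.28, adjusted p = 0.381). Lrg47_HSC replicate 3 lay among the wild-type values. The lipid kinase Pik3c3 itself differed by 0.28, its regulatory subunit Pik3r4 by 0.22 and the alternative subunit Uvrag by 0.31, with adjusted p from 0.478 to 0.572 and overlapping groups. Atg14, the subunit that directs the kinase to autophagy, went the other way. It read 6.62, 7.26 and 7.38 against 7.44, 7.57 and 7.47, with no overlap (difference −0.41, SE 0.23, adjusted p = 0.436). Lrg47_HSC replicate 1 was the low array, without which the difference was −0.17, and the other knockout-labelled arrays lay just under the wild-type ones.

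The 5 genes of the Ulk complex, which receives the signals of nutrient state, had a median difference of −0.27. On the probe sets chosen, all 5 had lower means on the Lrg47_HSC arrays. The median was −0.13 without Lrg47_HSC replicate 1 and −0.40 without Lrg47_HSC replicate 2. Ulk1, the initiating kinase, read 9.06, 9.61 and 10.09 against 10.35, 10.41 and 9.93. Its groups overlapped through Lrg47_HSC replicate 3 and WT_HSC replicate 3 (difference −0.64, SE 0.27, adjusted p = 0.301), and the difference was −0.38 without Lrg47_HSC replicate 1. Its relative Ulk2 differed by −0.37 (SE 0.25, adjusted p = 0.505) and Atg101, which stabilises Atg13 in the complex, by −0.26 (SE 0.18, adjusted p = 0.529). Without Lrg47_HSC replicate 1 these were −0.13 for both, and Atg101 was at −0.40 without Lrg47_HSC replicate 2. Atg13 and the scaffold Rb1cc1 (FIP200) differed by −0.27 and −0.02. Their other tested probe sets gave 0.09 and 0.31, and a dimmer one of Ulk2 gave 0.17, so the direction depended on the probe set for these genes.

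Membrane supply had a median difference of −0.20, which was −0.042 without Lrg47_HSC replicate 1 and −0.36 without Lrg47_HSC replicate 3. Atg2b, a lipid transfer protein, read 6.99, 7.01 and 7.46 against 7.49, 7.53 and 7.74, without overlap (−0.43, SE 0.20, adjusted p = 0.331). The gap between the groups was narrow, as Lrg47_HSC replicate 3 lay next to WT_HSC replicate 1. Wipi1, which reads the lipid mark, was at 8.46 on Lrg47_HSC replicate 1 and between 7.29 and 7.40 on the other 5 arrays. Its difference of 0.39 (SE 0.31, adjusted p = 0.581) was 0.020 without that array. Its relative Wipi2, which recruits Atg16l1, differed by −0.25 (SE 0.25, adjusted p = 0.678). It was at −0.058 without Lrg47_HSC replicate 1, at −0.14 and −0.12 without WT_HSC replicates 1 and 2, and at −0.48 without WT_HSC replicate 3.

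The 9 conjugation genes had a median difference of −0.03 and went in both directions. The median lay above 0 with the actin covariate (0.0050), with array weights (0.042), without Lrg47_HSC replicate 1 (0.046) and without WT_HSC replicate 3 (0.045). Atg5 and Atg12, whose products are joined to each other before they act, were measured on opposite sides. Atg5 was the 1 member whose Lrg47_HSC arrays all lay higher, at 6.15, 6.82 and 6.06 against 6.03, 5.27 and 5.75 (difference 0.66, SE 0.28, adjusted p = 0.304). Without Lrg47_HSC replicate 2 it was 0.42. On its second tested probe set the difference was −0.45, so the direction depended on the probe set. Atg12 read 7.36, 8.21 and 7.97 against 8.24, 8.28 and 8.98 (−0.66, SE 0.29, adjusted p = 0.323), with Lrg47_HSC replicate 1 and WT_HSC replicate 3 at the ends (−0.41 and −0.42 without the one or the other). Its second probe set, near the lower end of the scale, gave 0.04. Atg16l1, the partner that places Atg12 and Atg5 on the membrane, differed by 0.32 (SE 0.19, adjusted p = 0.454), and by 0.16 without Lrg47_HSC replicate 3. The activating enzyme Atg7 differed by −0.26, the transfer enzymes Atg3 and Atg10 by 0.06 and −0.03, and the processing proteases Atg4b, Atg4c and Atg4d by −0.22, 0.11 and −0.09.

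**Figure D4:**
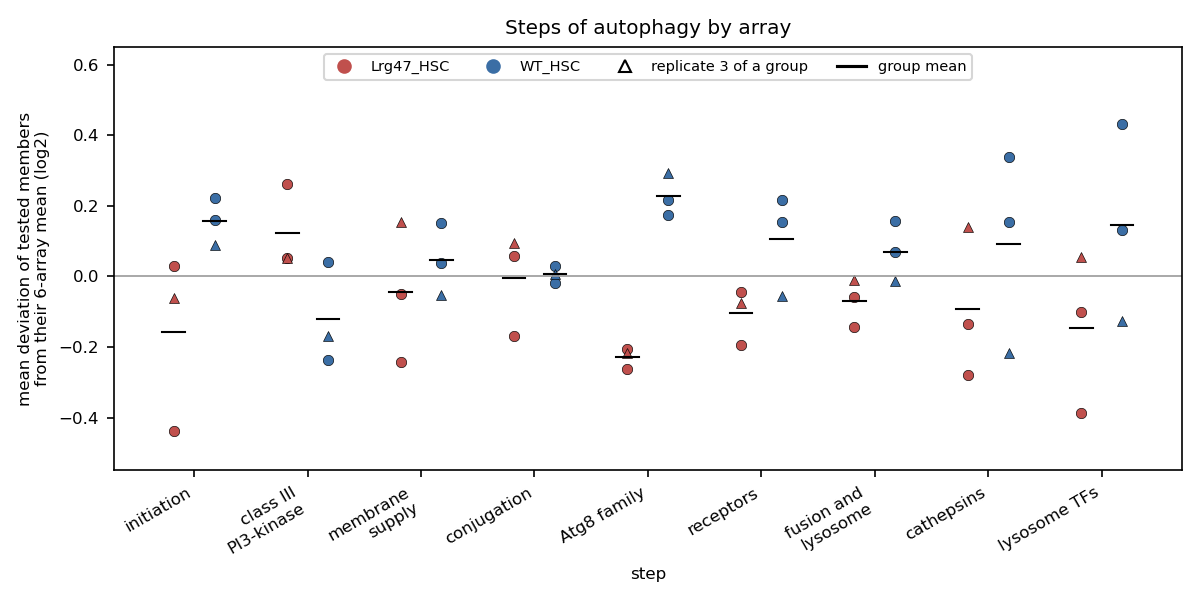
For each step, the mean deviation of its tested members from their 6-array means (log2), by array; bars are group means of 3 arrays and triangles replicate 3 of each group. The Atg8 family sits near −0.2 on the Lrg47_HSC arrays and near 0.2 on the WT_HSC arrays, and conjugation centres on 0 in both groups.

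Of the 4 measured receptors 3 had lower means and the median difference was −0.23. Nbr1, which carries ubiquitinated cargo, read 11.57, 11.93 and 11.89 against 12.09, 12.21 and 12.45 (difference −0.45, SE 0.15, adjusted p = 0.203). The groups did not overlap, and its dimmer probe set gave −0.10. Tax1bp1, a receptor for ubiquitinated aggregates and bacteria, read 11.65, 11.98 and 11.92 against 12.15, 12.10 and 12.03 (−0.24, SE 0.12, adjusted p = 0.381), but it was at −0.14 without Lrg47_HSC replicate 1, and its other 3 probe sets gave 0.25, 0.50 and 0.61. Sqstm1, or p62, the receptor that is itself consumed by autophagy, read 10.30, 10.55 and 10.31 against 10.58, 10.64 and 9.74. Apart from WT_HSC replicate 3, the lowest array, the wild-type values were the higher ones, and the mean difference was 0.07 (adjusted p = 0.923). Calcoco1 differed by −0.21 (SE 0.18, adjusted p = 0.607), by −0.12 without Lrg47_HSC replicate 2 and by −0.066 without WT_HSC replicate 1.

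All 6 genes of fusion and of the lysosome membrane had lower means on the probe sets chosen, with a median difference of −0.12. Rab7, the GTPase of late endosomes and lysosomes, read 12.49, 12.65 and 12.60 against 12.97, 12.71 and 12.86 (difference −0.27, SE 0.11, adjusted p = 0.286), without overlap, and its second probe set gave 0.01. The membrane proteins Lamp1 and Lamp2 differed by −0.03 (95% interval −0.38 to 0.31) and −0.12 (−0.42 to 0.17). The fusion proteins Stx17, Snap29 and Vamp8 differed by −0.12, −0.23 and −0.07, with overlapping groups, and Snap29 by −0.097 without Lrg47_HSC replicate 1, −0.38 without Lrg47_HSC replicate 2 and −0.15 without WT_HSC replicate 2. Lamp2 was at −0.0078 without WT_HSC replicate 3 and −0.22 without WT_HSC replicate 2. The 4 tested probe sets of Stx17 ran from −0.28 to 0.315 and the 4 of Lamp2 from −0.12 to 0.26. The 3 cathepsins, lysosomal proteases, had a median difference of −0.26, which ran from −0.41 to −0.068 with 1 array left out. Ctsl read 11.83, 11.87 and 12.20 against 12.39, 12.48 and 12.24 (−0.41, SE 0.14, adjusted p = 0.217). Its groups did not overlap, though Lrg47_HSC replicate 3 and WT_HSC replicate 3 were nearly level. Ctsb differed by −0.26 (SE 0.20, adjusted p = 0.56), by −0.15 without Lrg47_HSC replicate 1, by −0.068 without WT_HSC replicate 1 and by −0.41 without WT_HSC replicate 3. Ctsd differed by 0.12 (SE 0.25, adjusted p = 0.858). The transcription factor Tfe3, which drives lysosome genes, differed by −0.29 (SE 0.22, adjusted p = 0.552), and by −0.17 and −0.15 without replicate 1 of Lrg47_HSC or of WT_HSC. The probe set of its relative Tfeb read 2.52 to 3.06 on the 6 arrays, above the bacterial controls on 1 array only, and was not tested.

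Tfeb and Tfe3 bind DNA at motifs built on the letters CACGTG, and RefSeq promoters (GRCm38.p6, 250 bases before to 50 after each start) were found for 38 of the 45 measured members. CACGTG, a palindrome that reads the same on both strands, was in the promoters of 7 of the 38 genes (18.4%), or 7 of 45 promoter windows (15.6%), beside 7.15% of all 32851 promoters. These genes were Atg3, Atg5, Atg7, Atg14, Ctsd, Ctsl and Lamp1. The longer palindrome TCACGTGA, which contains it, was in those of Atg3 and Ctsd (4.44% of windows, against 0.974% of all). GTAAACA, 1 spelling of the Foxo motif, read on both strands, was in 0 of the 45 windows and in 3.65% of all promoters. At that share few matches are due in 45 windows, so the 0 says little. Other spellings were not counted, and the Gabarapl1 promoter shown holds ataaaca, which differs in the first letter. The promoters shown are that of Gabarapl1, which had the smallest p and no CACGTG, and those of the 3 members without overlap that hold it, of which Ctsl and Atg14 lay lower and Atg5 higher. Capitals mark CACGTG.
Gabarapl1, chr6:129532942-129533241, plus strand: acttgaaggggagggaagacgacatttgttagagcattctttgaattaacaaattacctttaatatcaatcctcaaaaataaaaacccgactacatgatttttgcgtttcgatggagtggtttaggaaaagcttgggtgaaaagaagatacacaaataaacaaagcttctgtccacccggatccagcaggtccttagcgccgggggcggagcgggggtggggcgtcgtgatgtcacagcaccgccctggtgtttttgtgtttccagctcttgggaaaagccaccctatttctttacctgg
Ctsl, chr13:64370471-64370770, minus strand: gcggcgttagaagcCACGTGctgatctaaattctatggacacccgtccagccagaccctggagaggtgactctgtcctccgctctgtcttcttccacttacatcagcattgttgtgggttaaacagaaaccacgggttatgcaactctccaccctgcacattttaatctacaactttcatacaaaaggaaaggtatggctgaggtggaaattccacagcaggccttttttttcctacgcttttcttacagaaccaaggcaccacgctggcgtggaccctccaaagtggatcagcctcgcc
Atg14, chr14:47568385-47568684, minus strand: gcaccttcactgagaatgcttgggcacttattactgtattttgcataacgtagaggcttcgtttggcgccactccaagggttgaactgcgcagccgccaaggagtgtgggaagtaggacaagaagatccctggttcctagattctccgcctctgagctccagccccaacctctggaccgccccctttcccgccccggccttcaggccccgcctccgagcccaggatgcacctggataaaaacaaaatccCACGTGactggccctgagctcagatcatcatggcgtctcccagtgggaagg
Atg5, chr10:44268089-44268388, plus strand: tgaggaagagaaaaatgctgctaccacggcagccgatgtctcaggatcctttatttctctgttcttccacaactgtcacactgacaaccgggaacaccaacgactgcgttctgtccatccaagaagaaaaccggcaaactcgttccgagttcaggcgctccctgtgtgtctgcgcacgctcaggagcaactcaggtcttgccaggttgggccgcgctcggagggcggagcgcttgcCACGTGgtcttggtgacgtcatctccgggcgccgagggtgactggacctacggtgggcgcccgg
A match is a description of these letters and not a site in use.

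Other genes of the pathway that are not in the set gave a like picture. Limma called 0 of 103 tested higher and 0 lower, with an unadjusted p under 0.05 for 18 (17.5%, beside 16.4% of all probe sets), and the groups did not overlap for 16 in the lower direction (15.5%, beside 11%) and 8 in the higher (7.77%, beside 11.5%). The median difference was −0.10. Of the vacuolar ATPase, the pump that acidifies the lysosome, 14 genes were tested and 5 lay wholly lower (35.7%, beside 11%) and 1 wholly higher (7.14%, beside 11.5%). Its subunit Atp6v1b2 read 9.99, 10.42 and 10.36 against 10.96, 10.90 and 10.97 (difference −0.69, SE 0.15, adjusted p = 0.089), and the accessory Atp6ap1 read 10.44, 10.94 and 10.98 against 11.45, 11.44 and 12.06 (−0.86, SE 0.22, adjusted p = 0.129). The knockout-labelled arrays were the lower ones for both. Of 41 lysosomal hydrolase and membrane genes 5 lay wholly lower (12.2%, beside 11%) and 4 wholly higher (9.76%, beside 11.5%), with a median of −0.20. The protease Ctsh read 9.22, 9.69 and 9.57 against 10.66, 10.52 and 10.04 (−0.91, SE 0.21, adjusted p = 0.101). For Ctsc, which activates other proteases, the difference was −0.41 (SE 0.13, adjusted p = 0.2), and its dimmer probe sets gave −0.93 and −1.24 (adjusted p = 0.0843 and 0.0533). Both genes were lower on all Lrg47_HSC arrays on each of these probe sets.

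Of 27 nutrient control genes, which act on the Ulk complex through the kinases mTOR and AMPK, 4 lay wholly lower (14.8%, beside 11% of all probe sets) and 3 wholly higher (11.1%, beside 11.5%), shares near the background, with a median of −0.17. Deptor, an inhibitor that binds mTOR, read 7.86, 7.65 and 7.11 against 6.59, 6.79 and 5.91 (difference 1.11, SE 0.30, adjusted p = 0.14). Flcn, which regulates the Rag GTPases, differed by 0.38 (SE 0.14, adjusted p = 0.247). The 3 Lrg47_HSC arrays were the higher ones for both genes, though another probe set of Flcn gave −0.12 with overlapping groups. Of 21 further autophagy genes 2 lay wholly lower (9.52%, beside 11%) and 0 wholly higher (beside 11.5%), with a median of 0.02. These 2 were the fusion protein Ykt6 (−0.50, SE 0.16, adjusted p = 0.185) and the protease Atg4a (−0.34, SE 0.20, adjusted p = 0.451).

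**Figure D5:**
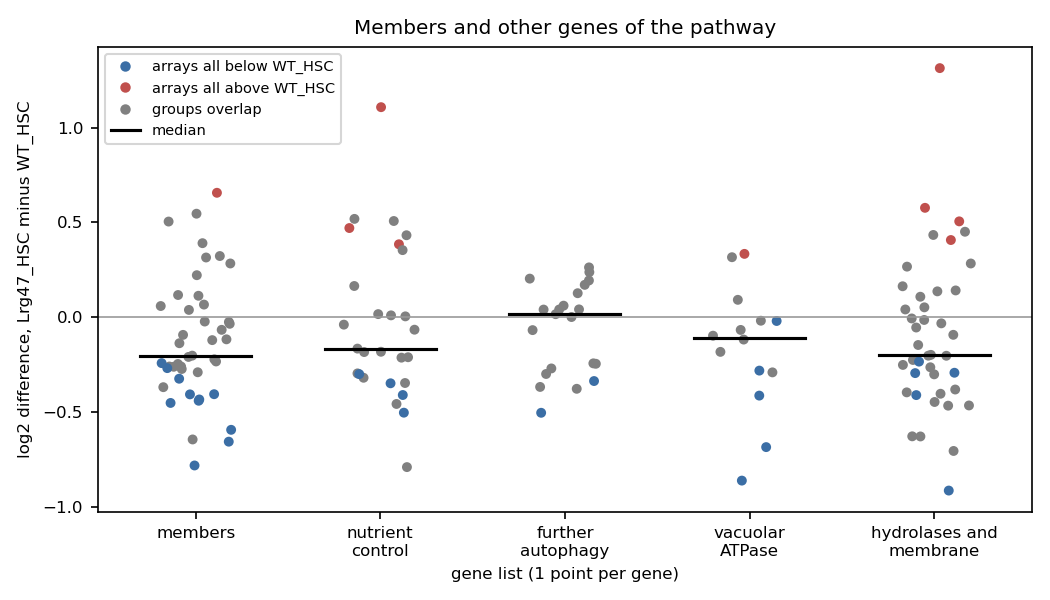
Each point is the log2 difference (Lrg47_HSC minus WT_HSC) of 1 gene, for the 44 tested members and 4 further lists of the pathway, coloured by whether the groups of 3 arrays overlap; bars are medians. The member median lies at −0.21, and that of further autophagy machinery at 0.02.

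The T and NK cell markers, of which 4 of 8 tested were called higher (beside 0.664% of all probe sets tested), differed between the same groups. The summed stem cell markers did not overlap between them, and the part of either in the values of the Atg8 family was not tested. A gene can pass the filter on the 3 Lrg47_HSC arrays alone. The 8 tested may thus be partly selected by high values there, and 4 of 8 is only a description. The T and NK cell sum, in which Ccl5 had the highest mean over the 6 arrays, was 8460 or more on every Lrg47_HSC array and 806 or less on every WT_HSC array. Over the 6 settings that each left out 1 array, the median difference of the Atg8 family ran from −0.49 to −0.32, and all 5 family members had lower means each time.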

How the data were processed

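Per the labels' protocols, RNA of the sorted cells went through T7 amplification (2 rounds) and biotin labelling. The values the authors deposited are on the log2 scale, 1 per probe set, from GCRMA according to the submitters' processing notes; its version is not given in the sources used here. GCRMA compresses dim probe sets, so their differences depend on its background correction. Of 45101 probe sets 34958 had 1 gene symbol. Probe sets above the array's median (50th percentile) on at least 3 arrays, Affymetrix controls left out, were fitted with limma 3.58.1 in R 4.3.3 (lmFit, eBayes with an intensity trend), 2-sided, with Benjamini-Hochberg adjustment over 22580 probe sets; adjusted p under 0.05 was the threshold. This fit had been tested on simulated data. With 3 arrays per group, their number limits the precision. No test compared the levels of different probe sets. Such levels served only to choose and rank a gene's probe sets, to name the brightest genes and to sum markers.

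The members, lists and tests were chosen with earlier results of these data known. Named members were the 3 with the smallest p in each step and those whose groups did not overlap, the 5 with the highest means and, of each other list, the 2 with the smallest p; further names complete a step or show disagreeing probe sets. Alternatives changed the filter, normalization, variance model, probe set, arrays, actin gap or replicate block.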

Additional observations from a re-analysis of the deposited data

How the results depend on the processing

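The count of members called higher was 0 in every setting, and that of members called lower was 0 except 1 (Gabarapl1) with array weights, with the filter at the 70th percentile and at adjusted p under 0.10. Other pathway genes called lower numbered 2 (Ctsh and Atp6v1b2) with array weights and 1 (Ctsc) with the mean over a gene's probe sets. All probe sets called higher and lower, 150 and 163, became 252 and 263 with the actin gap as covariate, 401 and 463 with array weights, 62 and 64 with the 25th percentile filter, 49 and 54 with no filter, and 27 and 41 with the replicate block, and ran from 17 to 138 and from 28 to 129 with 1 array left out, lowest without WT_HSC replicate 2. Same-numbered arrays did not deviate together (correlations −0.11, −0.02 and −0.28, beside −0.20 to 0.24 for the other pairs). So few values, from deviations that sum to 0 within each group, cannot decide whether the numbers pair the arrays. No member was called with or without the replicate block, and with fewer probe sets called under it, that says little.

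With the mean over a gene's probe sets, the median differences were −0.042 (all members), −0.36 (Atg8 family), −0.018 (membrane supply) and −0.033 (receptors). With the second probe set, which 28 members had, they were −0.070, −0.39, 0.027 and 0.0064, −0.15 for conjugation and 0.087 for the class III kinase. Array weights gave −0.39 for the Atg8 family. With 1 array left out the medians ran from −0.25 to −0.10 (all members), −0.49 to −0.32 (Atg8 family), −0.21 to −0.10 (fusion and lysosome membrane) and −0.36 to −0.042 (membrane supply). Of 26 named members 16 kept their sign in every setting, but the only other probe set tried by itself was the next brightest. Among the 16, a still dimmer tested probe set had the opposite sign for Ctsb (0.41), Ulk2 (0.17) and Wipi2 (0.20). Atg14, Atg101 and Tfe3, also among the 16, had no other probe set. Of all 28 members with several tested probe sets, 9 had the same sign on each of them. Among the named members, the sign turned on the second probe set for Atg12 (0.042), Atg2b (0.027), Atg5 (−0.45), Becn1 (−0.093), Calcoco1 (0.065), Map1lc3b (0.31), Rab7 (0.0081) and Tax1bp1 (0.25), and with the mean of probe sets for Lamp2 (0.012) and Tax1bp1 (0.28). Ctsd turned with array weights (−0.081) and without Lrg47_HSC or WT_HSC replicate 3 (−0.04 and −0.13). The cause was not tested.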

Other observations

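Some lysosomal genes outside the set, named after their values were seen, had higher means on the Lrg47_HSC arrays. Of the 41 tested genes of their list, 14 had higher means and 27 lower ones. The protease Ctsz read 9.49, 9.50 and 9.38 against 8.62, 9.23 and 8.79 (difference 0.58, SE 0.19, limma adjusted p = 0.201), and the galactosidase Glb1 differed by 0.51 (SE 0.21, adjusted p = 0.294). The protease Lgmn was high on 1 array only, at 6.42 on Lrg47_HSC replicate 3 and between 3.05 and 4.06 on the other 5 arrays. None of these 3 passed the threshold. Of 8 monocyte and macrophage markers 4 lay wholly higher and 1 wholly lower on the Lrg47_HSC arrays, beside 11.5% and 11% of all probe sets tested. The 7 tested had a median difference of 0.76, and 1 (Ms4a6c) was called higher, as were 0.664% of all probe sets tested. The filter can be passed on the 3 Lrg47_HSC arrays alone, so these 7 may be partly selected by high values there. The values of the 8, summed on the linear scale, ran from 2580 to 4130 against 2370 to 3970. Of these markers 1 was at or below the bacterial controls on every array, and their part in the lysosomal genes was not tested.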
